A study of Mus musculus with 54 samples.

Results

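Claudins are the membrane proteins that build the strands of tight junctions. The set described here was 10 claudin genes of the kidney tubule and its vessels, Cldn1, Cldn2, Cldn3, Cldn4, Cldn5, Cldn7, Cldn8, Cldn10, Cldn16 and Cldn19, chosen by name out of the 33126 gene symbols in the tables. They were followed across nephron segments, endothelium, bulk tissue, cells and nuclei of adult mouse kidney. The data comprised 39 single-cell or single-nucleus libraries made on the 10x Chromium platform, with 175959 barcodes, and 15 bulk RNA-seq libraries, in 18 groups of 3 libraries.

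Male C57BL/6J mice of 19 weeks gave suspensions dissociated either cold, on ice with a cold-active protease, or warm, at body temperature with a commercial enzyme kit. Each was profiled fresh, after cryopreservation for 6 weeks, after methanol fixation and by bulk RNA-seq. Male Balb/c mice of 18 weeks gave fresh cold-dissociated cells, nuclei washed 3 times at 500g, and bulk RNA of intact kidney. Female Balb/c mice of 15 weeks gave fresh cold-dissociated cells, cells cryopreserved for 2 weeks, nuclei from 3 protocols (3 washes at 500g, 1 wash at 2000g, or a sucrose cushion), and bulk RNA of intact kidney and of cold suspensions. The female 10x libraries used chemistry version 3 and the others version 2, so sex, age, chemistry and depth cannot be told apart.

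The claudins in a tight junction decide whether the space between neighbouring cells is sealed or lets certain ions through. The proximal tubule is leaky to cations and water, the thick ascending limb reabsorbs calcium and magnesium between cells, and the distal segments are tight. Outside the tubule, Cldn5 is best known as the claudin of blood vessel endothelium.

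Counts were summed per gene, which matters most for Cldn10. This gene occupies bases 118787908 to 118875489 of the plus strand of chromosome 14 in the GENCODE annotation (GRCm38). RefSeq, a separate annotation whose upstream start lies outside that span, gives 2 starts, whose products are known from other work to prevail in different tubule segments. The deposited counts do not separate them. The promoters at both starts are printed because Cldn10 was high in both the loop and the proximal tubule, and those of Cldn16 and Cldn19 because in fresh cells these genes had their highest class in common with it. Each runs from 250 bases before to 50 bases after the start, on the plus strand, and is taken from RefSeq on GRCm38.p6. Cldn19 likewise has 2 RefSeq starts with overlapping windows, and the upstream window is printed, the other being chr4:119255219-119255518. Capitals mark the bases from the start on.
Cldn10 upstream start, chr14:118787621-118787920: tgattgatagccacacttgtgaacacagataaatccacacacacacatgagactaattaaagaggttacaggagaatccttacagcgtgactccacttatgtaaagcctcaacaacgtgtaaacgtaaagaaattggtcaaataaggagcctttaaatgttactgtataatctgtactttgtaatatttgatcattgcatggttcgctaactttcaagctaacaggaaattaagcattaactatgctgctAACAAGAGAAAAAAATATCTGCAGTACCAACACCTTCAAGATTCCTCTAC
Cldn10 downstream start, chr14:118854700-118854999: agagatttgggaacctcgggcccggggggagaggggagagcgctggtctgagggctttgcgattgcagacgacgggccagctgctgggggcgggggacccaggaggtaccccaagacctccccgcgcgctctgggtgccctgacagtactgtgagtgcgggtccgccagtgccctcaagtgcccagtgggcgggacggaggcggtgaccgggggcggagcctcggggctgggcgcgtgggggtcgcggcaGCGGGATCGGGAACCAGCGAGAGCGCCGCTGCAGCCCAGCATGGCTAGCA
Cldn16, chr16:26462885-26463184: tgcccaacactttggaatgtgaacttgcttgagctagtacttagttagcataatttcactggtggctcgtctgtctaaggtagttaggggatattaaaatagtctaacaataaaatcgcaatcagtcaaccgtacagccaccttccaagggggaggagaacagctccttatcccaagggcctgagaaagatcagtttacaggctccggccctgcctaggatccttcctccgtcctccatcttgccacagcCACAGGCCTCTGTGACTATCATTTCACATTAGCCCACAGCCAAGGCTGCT
Cldn19 upstream start, chr4:119255191-119255490: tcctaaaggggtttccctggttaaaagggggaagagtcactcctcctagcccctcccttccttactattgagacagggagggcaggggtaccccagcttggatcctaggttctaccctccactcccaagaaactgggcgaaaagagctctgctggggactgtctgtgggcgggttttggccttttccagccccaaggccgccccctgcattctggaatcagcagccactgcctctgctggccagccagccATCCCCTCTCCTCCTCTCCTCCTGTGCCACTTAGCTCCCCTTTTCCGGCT
The promoter table held 9 of the 10 members. Gene structure differed widely among the members. Cldn3, Cldn4, Cldn5 and Cldn8 have no intron, whereas introns add up to 1.16 kb in Cldn7, 2.76 kb in Cldn19, 7.23 kb in Cldn2, 10.4 kb in Cldn1, 18.5 kb in Cldn16 and 85.0 kb in Cldn10. Cldn1 and Cldn16 are neighbours 91.3 kb apart on chromosome 16, with 0 coding genes between them, and Cldn4 and Cldn3 lie 39.3 kb apart on chromosome 5.

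Barcodes were clustered without any claudin and clusters were named from fixed marker genes, so the classes are rebuilt. Levels are CPM, the UMIs of a gene per 1000000 non-mitochondrial UMIs of a class in one library, and are compared between classes for the same gene only. Median UMIs per barcode ranged over libraries from 343 to 688 in male Balb/c cells, from 946 to 1025 in male nuclei, from 1192 to 1542 in fresh C57BL/6J cells, from 2293 to 2990.5 in female fresh cells and from 3108.5 to 3893.5 in female nuclei. Free RNA puts UMIs of abundant genes into every class, and macrophages are given below as a class that should lack tubular claudins. Library pairs shared a median of 0.551% of barcodes and at most 2.05%.

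**Figure D1:**
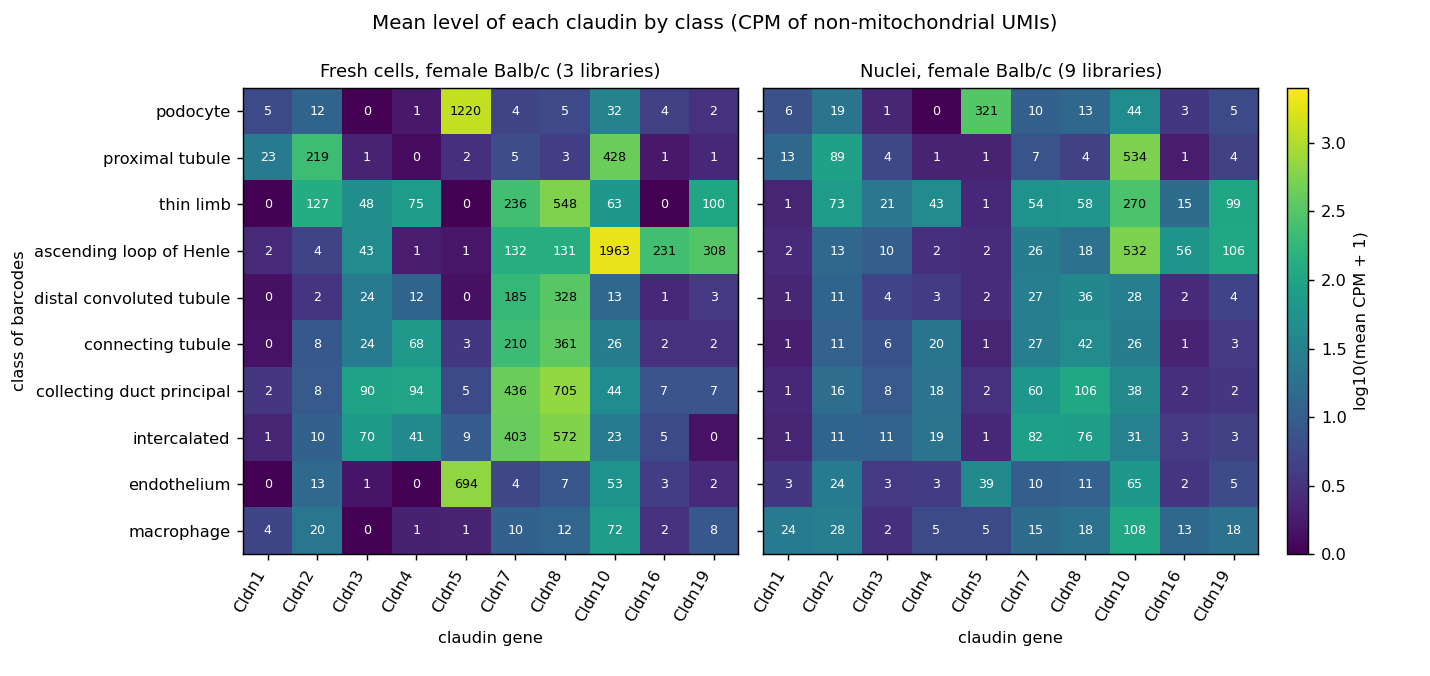
Mean CPM of the 10 claudins in 10 classes of barcodes, in female Balb/c fresh cells (left, 3 libraries) and nuclei of 3 protocols (right, 9 libraries), coloured by log10(CPM + 1) with the mean printed in each field. Cldn16 and Cldn19 were highest in the ascending loop of Henle, Cldn2 in the proximal tubule, Cldn5 in podocytes, and Cldn7 and Cldn8 were spread over the distal classes.

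The proximal tubule held Cldn1, Cldn2 and Cldn10, while each of the other members had at most 5.31 CPM there in female fresh cells. Cldn2 forms the cation and water pore of this segment. Its 3 libraries had 201, 233 and 222 CPM in 7305 proximal tubule cells, 219 ± 16.1 CPM (SD, n = 3). The thin limb class followed with 127 ± 8.84 CPM and did not overlap it, and the next class, T cells, had 22.7 ± 2.32 CPM. Macrophages had 20.3 ± 17.3 CPM. In female nuclei Cldn2 had 54.5, 85.8 and 121 CPM as the lowest, median and highest of 9 libraries in the proximal tubule, which overlapped the thin limb at 72.5 ± 22.7 CPM. Within the proximal tubule of nuclei, Cldn2 had 98.5 ± 28.9 CPM in the 16969 nuclei marked as S1, the first stretch, and 60.7 ± 15.8 CPM in the 7413 marked as S3, the last. A thin limb cluster of 991 nuclei led by Fst and Bst1 held 127 ± 38.3 CPM.

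Cldn10, a claudin that makes ion-selective channels, had 434, 475 and 375 CPM in the proximal tubule of female fresh cells, below the ascending loop of Henle at 2054, 1797 and 2039 CPM in 1199 cells. The classes did not overlap. Macrophages had 71.5 ± 40.5 CPM and endothelium 53.2 ± 12.3 CPM, so both segments were well above that level. In female nuclei the order differed between protocols. After 3 washes at 500g the proximal tubule had 639, 537 and 636 CPM and the loop 310.3, 338 and 335 CPM, so the tubule was higher. After 1 wash at 2000g the loop was higher, with 695, 678 and 740 CPM against 577, 493 and 548 CPM in the proximal tubule, and with sucrose likewise, with 593, 563 and 537.5 CPM against 394, 531 and 453 CPM. The classes overlapped in none of the 3 protocols, and only over all 9 libraries, at 534 ± 80.2 CPM in the proximal tubule and 532 ± 166 CPM in the loop. Macrophages of those nuclei held 108 ± 34.9 CPM.

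Cldn1, a sealing claudin, had its highest level in different classes in different groups. It had 23.4 ± 0.98 CPM in the proximal tubule of female fresh cells and 12.6 ± 1.33 CPM in nuclei, where macrophages had 23.9 ± 23.4 CPM on 25 UMIs, with ranges that overlapped. In fresh C57BL/6J cells the highest class was instead the thin limb, at 48.2 ± 22.6 CPM against 6.77 CPM in the proximal tubule, and male Balb/c cells and nuclei also had it there, at 93.2 ± 16.8 and 52.1 ± 10.9 CPM. The thin limb clusters of C57BL/6J and male Balb/c cells had C3 and Ptgds among their leading genes, so in cells the highest class of Cldn1 differed between groups along with the naming of clusters. In the female data the highest clusters stayed unnamed, 137.7 ± 37.8 CPM in 112 cells led by C3 and Ptgds, and 57.4 ± 18.02 CPM in 843 nuclei led by Kcnmb2 and Wnt16. The thin limb of females was low in Cldn1. Its clusters in nuclei had 0.80, 4.24 and 0 CPM. With fresh and cryopreserved female cells pooled and thinned to 1000 UMIs, 0 of 223 thin limb cells had a Cldn1 UMI.

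The ascending loop of Henle was the highest class of Cldn16 and Cldn19, whose products together form the paracellular path for calcium and magnesium. Cldn16 had 229, 201 and 263 CPM in female fresh cells, and the next class, the collecting duct, had 6.89 CPM. Cldn19 had 316, 279 and 329 CPM, followed by the thin limb at 100.1 ± 29.0 CPM and macrophages at 7.68 CPM. In neither gene did the loop overlap the next class. In female nuclei Cldn16 had 49.7, 56.0 and 72.4 CPM as lowest, median and highest in the loop, again without overlap, whereas Cldn19 at 106 ± 20.8 CPM overlapped the thin limb at 99.3 ± 38.3 CPM.

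The loop was not uniform for these claudins. Among the loop clusters of female nuclei, Cldn16 was highest in a cluster of 2387 nuclei led by Nrxn3 and Tmem207, where it had 139, 154 and 201 CPM as lowest, median and highest of 9 libraries and Cldn10 had 145 ± 49.9 CPM. In a cluster of 2987 nuclei led by Snap91 and Kcnt1 the picture was reversed, with 731 ± 255 CPM of Cldn10 and 3.86 ± 2.40 CPM of Cldn16. The Cldn10 ranges of these clusters, 69.2 to 219 and 395 to 1009 CPM, did not overlap, nor did those of Cldn16. Cldn19, in contrast, had 151 ± 34.0 CPM in the former and 88.1 ± 17.99 CPM in the latter. The other large loop clusters held 677 and 619 CPM of Cldn10 beside 31.8 and 36.7 CPM of Cldn16. A cluster of 357 nuclei with the macula densa markers Nos1 and Pappa2 had 106 ± 39.9 CPM of Cldn10 and 8.33 ± 8.45 of Cldn19, the lowest means of the loop clusters named here, and 30.9 ± 20.4 of Cldn16, close to that of the other large clusters. The clusters were made from these nuclei, so these values are descriptions without a test. The part of this makeup of the loop in the comparisons of the whole class given below was not tested.

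**Figure D2:**
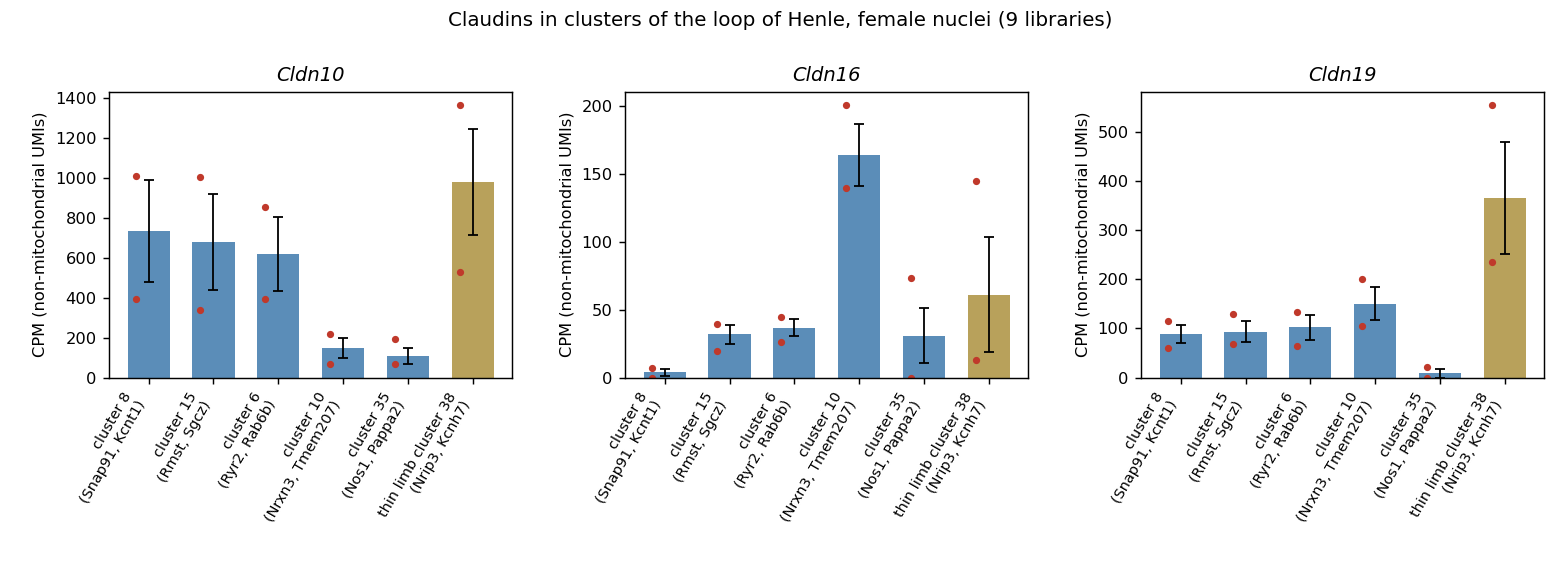
Mean CPM (bars) with SD (error bars) and the lowest and highest library (red points) of Cldn10, Cldn16 and Cldn19 in 5 ascending loop clusters and a thin limb cluster of female nuclei, 9 libraries. Cldn16 reached 164 CPM in the cluster led by Nrxn3 and Tmem207, where Cldn10 was at 145 CPM, and 3.86 CPM in the cluster led by Snap91 and Kcnt1, where Cldn10 was at 731 CPM.

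Detection in the same nucleus was then compared over libraries, with each nucleus of the ascending loop thinned to 1000 UMIs. These are the nuclei that were clustered, so the values are not independent of the cluster levels. The depth was reached by 10696 of 10714 female but only 100 of 2964 male nuclei, so the 3 male libraries entered with 27 to 37 nuclei each. The log2 odds ratio of detecting both Cldn10 and Cldn16 averaged -0.82 ± 0.87 (SD, n = 12 libraries) and was negative in 10 of 12 (exact sign-flip permutation test, two-sided, p = 0.00977, adjusted over 3 pairs 0.0147). The 3 female protocols had -0.85, -1.13 and -1.61, negative in each library, and the few male nuclei 0.32, with 1 of 3 libraries negative. With nuclei thinned to 500 UMIs the mean was -1.33 and all 12 libraries were negative.

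Cldn16 and Cldn19 averaged 1.10 ± 0.83, positive in 11 of 12 (p = 0.000977, adjusted 0.00293 by the same exact test), but the size and the call differed between settings. The male libraries had a Cldn16 UMI in 5 and a Cldn19 UMI in 10 of 100 thinned nuclei. With so few, the constant added to each count can make the value positive without any pairing. The p over 12 libraries is therefore not read as pairing, and the same male libraries enter the mean of Cldn10 and Cldn19. At 500 UMIs the mean was 0.78 and did not pass (adjusted p = 0.105, exact permutation test), at 2000 UMIs, which only the 9 female libraries reached, it was 0.35 (adjusted p = 0.00586, exact permutation test, positive in 9 of 9), and without doublets 0.68 (adjusted p = 0.0491, exact permutation test). In fresh cells, given as values, this pair had -0.07 in female Balb/c and -0.63 in cold C57BL/6J libraries, and Cldn10 with Cldn16 had -1.84 and -2.04. For Cldn10 and Cldn19 the mean of 0.32 ± 1.08 in nuclei did not pass (adjusted p = 0.312, exact permutation test), and it was -0.17 at 500 UMIs, -0.091 without doublets and -0.20 at 2000 UMIs, where it passed (adjusted p = 0.0273, exact permutation test). With 3 libraries a group cannot reach a p below 0.25.

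A thin limb cluster of 339 nuclei led by Nrip3 and Kcnh7 held both Cldn10 at 978 ± 264 CPM and Cldn19 at 366 ± 113 CPM. Another, of 268 nuclei led by Prss35 and Calml3, had 27.8 CPM of Cldn10 but 88.2 ± 49.2 CPM of Cldn4 and 115 ± 57.1 CPM of Cldn8. The thin limb class thus held clusters with very different values of Cldn10, Cldn19 and Cldn8, the last at 2.85 CPM in the former.

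Cldn3, Cldn4, Cldn7 and Cldn8 were found in the distal nephron and collecting duct, but not in equal classes. Cldn4 had 11.6 ± 3.17 CPM in the distal convoluted tubule of female fresh cells, and in female nuclei the highest class was the thin limb for Cldn3 (21.0 CPM), the urothelium for Cldn4, intercalated cells for Cldn7 and the collecting duct for Cldn8. Cldn8, which with Cldn4 is known for a chloride path of the collecting duct, had 672, 698 and 744 CPM in 707 collecting duct principal cells of female fresh libraries. Intercalated cells, the acid-base cells of the duct, had 572 ± 96.3 CPM and overlapped them. Thin limb followed with 548 ± 140 CPM, connecting tubule with 361, distal convoluted tubule with 328, the loop with 131 and macrophages with 11.7 CPM. Cldn8 differed between intercalated subtypes of cells, at 886 ± 108 CPM in 140 type A cells and 341 ± 16.3 CPM in 388 type B cells. In nuclei the means were 108 ± 42.1 and 55.5 ± 26.5 CPM, and the ranges, 45.4 to 158 and 13.3 to 84.9 CPM, overlapped.

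Cldn7 had 436 ± 36.3 CPM in the collecting duct and 403 ± 72.2 in intercalated cells, overlapping, then 236, 210.5, 185 and 132 CPM in thin limb, connecting tubule, distal convoluted tubule and loop. Cldn4 had 94.3 ± 11.2 CPM in the collecting duct, 75.3 ± 15.2 in the thin limb and 68.5 ± 9.68 in the connecting tubule, each overlapping its neighbour. In nuclei its highest class was urothelium, the lining of the urinary space, at 105 ± 40.9 CPM. Cldn3 had 90.1 ± 14.0 CPM in the collecting duct and 69.7 ± 33.7 in intercalated cells, overlapping. In the proximal tubule of female nuclei Cldn3 separated the stretches, with 0 to 2.04 CPM over libraries in S1 and 6.86 to 24.1 CPM in S3. Cldn7 did so too, at 1.05 to 4.72 and 7.55 to 22.4 CPM, as did Cldn19, at 0.62 to 2.83 and 4.84 to 16.1 CPM. In male Balb/c cells Cldn3 had 1 UMI in 1944 S1 cells and 0 in 1436 S3 cells.

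Cldn5 was highest in podocytes, the filter cells of the glomerulus. In female fresh cells the libraries had 1357, 1157 and 1145 CPM in 423 podocytes and 806, 627 and 650 CPM in 1038 endothelial cells, without overlap, against 0.586 CPM in the loop. Fresh C57BL/6J libraries of cold suspensions had 1975, 1546 and 1389 CPM in podocytes and 184.5 ± 63.6 CPM in endothelium. With fresh and cryopreserved female cells pooled and barcodes thinned to 1000 UMIs, 74.5% of 521 female podocytes had a Cldn5 UMI (87.4% unthinned), against 0.0972% of loop and 0.205% of proximal tubule cells. Endothelium itself was divided. Arterial cells (321) held 1705 ± 192 CPM, peritubular cells (628) 92.9 ± 14.5 CPM and glomerular cells (89) 62.8 ± 33.3 CPM. Podocytes thus exceeded the endothelial mean but not the arterial subclass. In nuclei arterial endothelium held 393 ± 232 CPM and peritubular endothelium 29.2 ± 15.9 CPM, of whose 374 UMIs 269 came from a cluster of 1150 of its 7132 nuclei.

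**Figure D3:**
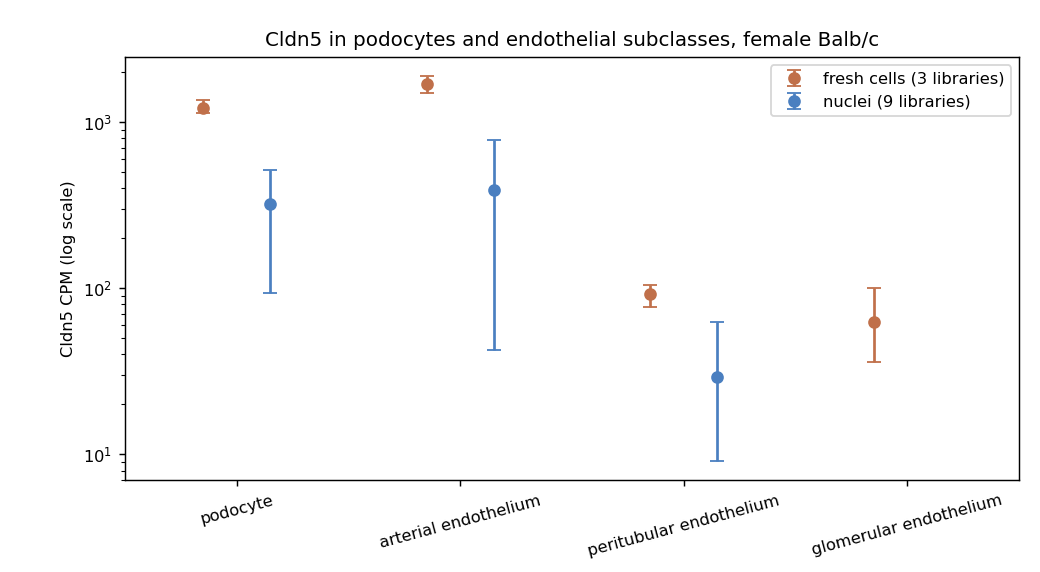
Mean Cldn5 CPM (points, log axis) with the lowest and highest library (bars) in podocytes and endothelial subclasses of female fresh cells (3 libraries) and nuclei (9 libraries, with no glomerular subclass). Arterial endothelium averaged 1705 CPM and peritubular endothelium 92.9 CPM in cells.

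Over 13 classes of the female nuclei, the genes whose mean log2(CPM + 1) was most like each member among 7863 genes were, with Pearson's r as a description, Folr1 (0.931), Slc6a18 and Uxs1 for Cldn2, and Tmem106b (0.893), Stard7 and Ifrd1 for Cldn3. For Cldn4 they were Krt18 (0.954), Nfe2l3 and Rab15, for Cldn5 Dync1i1 (0.986), Sema3g and Podxl, for Cldn7 Ccser1 (0.968), Lsm6 and Pts, and for Cldn8 Rab15 (0.949) and Arhgef37. For Cldn10 they were Slc9a3 (0.976), the sodium-proton exchanger of the proximal tubule and thick limb, Stxbp5l and Vstm5. Cldn16 and Cldn19 shared Sim2 and Pex5l among their 3, at 0.937 and 0.957 for Cldn16 and 0.962 and 0.932 for Cldn19, with Ppp1r1b and Tmem86a as the others. For Cldn1 none are given, since its highest class, macrophages, rested on 25 UMIs. All classes came from the same libraries.

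In bulk RNA, where fewer cells of a type and less RNA per cell cannot be told apart, levels were compared between genes per kilobase. In intact female kidney Cldn2 had 673 ± 30.2 TPM (reads per kilobase scaled to a common sum, n = 3), Cldn10 324 ± 5.22 and Cldn8 212 ± 19.3, without overlap between neighbours. The rest lay between 76.0 TPM for Cldn4 and 36.6 TPM for Cldn5, and each of them overlapped its neighbour. Cldn2 also led in male Balb/c intact kidney, at 527 ± 111 TPM, and in C57BL/6J suspensions, at 652 TPM cold and 592.5 TPM warm. The lowest member in both C57BL/6J suspensions was Cldn3, at 3.38 TPM cold and 9.36 TPM warm.

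Warm and cold suspensions were compared in bulk. The protocols differ in temperature, enzyme, mincing and spin speed, so these cannot be told apart. The members that rose in warm suspensions were Cldn3, Cldn4, Cldn7, Cldn8 and Cldn19. Cldn4 had 60.6, 42.8 and 68.6 CPM warm and 10.8, 14.7 and 6.83 CPM cold, with no overlap, a log2 fold change of 2.40 (SE 0.21, edgeR adjusted p = 2.33e-05). Cldn8 had 122.5, 98.1 and 131 CPM warm against 67.7, 82.4 and 47.0 CPM cold (log2 0.82, SE 0.15, adjusted p = 0.00622). Cldn7 rose by 0.92 (SE 0.17, adjusted p = 0.00596), Cldn3 by 1.42 (SE 0.33, adjusted p = 0.0192, on 71 and 24 reads) and Cldn19 by 0.43 (SE 0.12, adjusted p = 0.0395). In all, 5 of 10 members rose and 0 fell, against 8.68% of 14102 genes called, 5.42% higher and 3.26% lower. The calls of Cldn3 and Cldn19 were lost without warm replicate 2 or 3 or cold replicate 1 or 2 (adjusted p 0.0614 to 0.0821 and 0.0917 to 0.153), and that of Cldn3 with DESeq2 (adjusted p = 0.0709). Cldn2 at -0.18, Cldn10 at -0.15, Cldn16 at 0.36, Cldn5 at -0.48 and Cldn1 at -0.19 did not pass. The median of the members was 0.40 and that of all genes -0.01. Of 27 tight junction partners tested, 6 rose, led by Cgn (0.59), Ildr1 (0.52) and Ocln (0.45), and 3 fell, Ildr2 (-0.41), Jam3 (-0.40) and Amot (-0.29). Of 4 other claudins tested, 0 passed with edgeR and 0 had an unadjusted p under 0.05.

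Intact female kidney was compared with cold suspensions. The study flash froze and stored the intact kidneys, whereas the suspensions were digested, filtered and spun. Freezing, dissociation and loss of cells therefore cannot be told apart. Cldn3 had 16.2, 16.1 and 13.4 CPM intact and 8.92, 9.47 and 7.40 CPM in suspension, with no overlap (log2 0.84, SE 0.12, adjusted p = 0.00129). It was the 1 member called, against 20% of 16538 genes, 12.1% higher and 7.91% lower. The count was 5 without intact replicate 3, and 2 without cold replicate 2 or 3 and with the exact test. Cldn5 at -0.31 (adjusted p = 0.0614) and Cldn10 at 0.16 (adjusted p = 0.0806) came next. Among 7 other claudins tested 4 rose, led by Cldn11 (3.26), Cldn23 (1.41) and Cldn15 (0.53), and partners rose in 10 cases, led by Marveld3 (0.61), Esam (0.53) and Cgn (0.52), and fell in 2, Jam3 (-0.32) and Magi2 (-0.29).

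**Figure D4:**
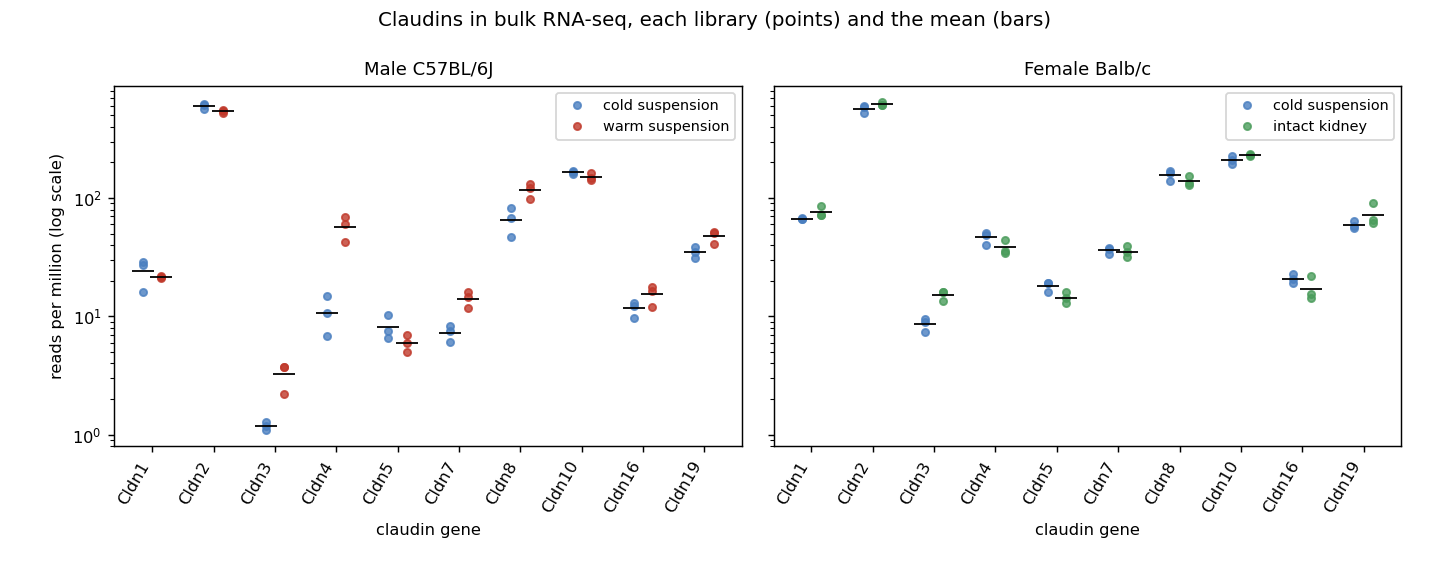
CPM of each claudin (log axis) in bulk libraries (points) with the mean (bar), for C57BL/6J cold and warm suspensions and female Balb/c cold suspensions and intact kidney. The warm libraries had 42.8 to 68.6 CPM of Cldn4 and the cold ones 6.83 to 14.7 CPM.

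In single cells the warm and cold suspensions differed in 2 of 25 pairs of member and class tested, against 4.46% of all gene-class pairs. Cldn10 in the ascending loop had 2133, 1386 and 1591 CPM warm and 896, 687 and 503 CPM cold, without overlap (log2 1.26, SE 0.18, adjusted p = 0.000288, where 4.66% of genes in that class were called). Loop clusters differed in Cldn10, and the part of the makeup of the loop in this value was not tested. Cldn4 in the collecting duct had 573, 382 and 526 CPM warm and 210.4, 148 and 138 CPM cold (log2 1.55, SE 0.24, adjusted p = 0.000126, with 2.95% called). Class shares moved too. Podocytes made up 2.89% of cold and 0.0339% of warm barcodes, and the loop 2.83 ± 0.25% of cold and 6.60 ± 1.30% of warm barcodes. Over all barcodes, where 14.9% of genes were called, Cldn5 fell by 2.08 on the log2 scale and Cldn8 by 0.55, and Cldn19 rose by 1.44 and Cldn10 by 0.86. The part of the class shares in these sums was not tested. In bulk RNA Cldn19 rose too, but Cldn8 rose there where it fell here, and Cldn10 and Cldn5 did not pass. The reason for the difference was not tested. Without cold replicate 2 the calls of Cldn19, Cldn10 and Cldn8 were lost (adjusted p = 0.0524, 0.0599 and 0.0963), and that of Cldn8 also without cold replicate 3 or warm replicate 1 or 3.

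Nuclei were compared with fresh cells to see which transcripts each preparation keeps. The authors counted introns and exons in nuclei and exons alone in cells, so preparation and counting cannot be told apart. Most member-class pairs that could be tested were called lower in nuclei, with counts given below beside those of all genes. In the ascending loop of female kidneys Cldn10 had 310.3, 338 and 335 CPM in nuclei washed 3 times at 500g and 2054, 1797 and 2039 CPM in cells, a log2 fold change of -2.94 (SE 0.10, adjusted p = 2.51e-15, where 81.5% of genes were called). Cldn16 fell by 2.43 (SE 0.12) and Cldn19 by 2.01 (SE 0.14). In males Cldn10 fell by 1.52 (SE 0.21) and Cldn16 by 1.67 (SE 0.32), whereas Cldn19 at -0.51 did not pass (adjusted p = 0.0856), with 62.6% of genes called. Whether the makeup of the loop class had a part in these values was not tested.

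Over all barcodes Cldn5 and Cldn8 had the most negative fold changes in both sexes. Cldn3, Cldn4, Cldn5 and Cldn8 have no intron, and the part of intron length in these values was not tested. Class shares moved too. Podocytes made up 2.53% of female fresh cells and 0.854% of nuclei washed 3 times at 500g, and 4.15% and 0.382% in males, whereas the loop made up 6.94% and 17.1% in females and 5.28% and 12.4% in males. The part of these shares in the sums over all barcodes was not tested. Cldn8 in the female collecting duct had 55.2, 76.8 and 49.3 CPM in nuclei against 672 to 744 CPM in cells (log2 -3.74, 78.9% of genes called), and in males the fold change was -3.39 (80.1% called). In the endothelium Cldn5 had 19.4, 28.4 and 8.94 CPM in female nuclei and 627 to 806 CPM in cells (log2 -5.33, SE 0.21, 80.2% called). The class was made up differently in the preparations, since arterial cells were 321 of its 1038 fresh cells and 243 of its 9342 nuclei of the 3 protocols. Over the 9 libraries of those protocols, with the sucrose and 2000g nuclei included, the class had 38.9 CPM against 694 CPM in cells, the arterial subclass 393 against 1705 CPM and the peritubular subclass 29.2 against 92.9 CPM. The part of the makeup in the class value was not tested. In female podocytes Cldn5 had 109, 184 and 93.4 CPM in nuclei and 1145 to 1357 CPM in cells (log2 -3.31, SE 0.21, 81.5% called), whereas in male podocytes the difference was -0.21 (adjusted p = 0.497, 84.4% called), where the median of all genes was -1.50. Cldn2 in the proximal tubule fell by 2.56 in females, from 219 to 63.2 CPM (85.8% called), and by 1.75 in males (79.5% called). Cldn10 in the proximal tubule did not pass in females, at -0.27 (adjusted p = 0.0882), and its CPM of 604 ± 58.3 in nuclei lay above the 428 ± 50.2 of cells, so the direction depends on the scaling between libraries.

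Over classes, 36 of 46 member-class pairs were called in females, 35 lower and 1 higher, where 80.6% of all gene-class pairs were called, 41.5% higher and 39.1% lower. In males 20 of 27 were called, 16 lower and 4 higher, against 74.8% of all pairs, 44.5% higher and 30.3% lower. The share of members called was thus near the background. The female exception was Cldn10 in the thin limb (0.97, 76.5% called), a class of 1 cluster in cells and of 3 in nuclei with 27.8 to 978 CPM, whose part in the value was not tested, and the male ones were Cldn3 in the proximal tubule, on 1 UMI in cells, and Cldn10 in connecting tubule (1.45), distal convoluted tubule and intercalated cells (1.72). Without thinning, Cldn10 was detected in 7.37% of male connecting tubule nuclei, 6.05% of distal convoluted tubule and 7.61% of intercalated nuclei. Male endothelial nuclei had 6.52%, and the part of free RNA in these male Cldn10 calls was not tested. Summed over all barcodes, 84.8% of genes were called in females, 43.8% higher and 41.0% lower, and 81.3% in males, 53.6% higher and 27.6% lower. All 10 members were lower in females, from -5.29 for Cldn5 to -0.49 for Cldn10, with a median of -2.18 against 0.10 for all genes. The scaling between libraries made the fold changes more negative than the CPM alone, so the small fall of Cldn10 may depend on it. In males 7 were lower, led by Cldn8 at -3.96 and Cldn5 at -3.59, and Cldn3, Cldn10 and Cldn19 did not pass, with a median of -0.84 against 0.84.

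The difference over all barcodes was set against intron length, and the part of the class shares in it was not tested. Spearman's rho between kilobases of intron and the log2 fold change was 0.819 in females and 0.575 in males over the 10 members, and 0.625 and 0.466 over 13357 and 13597 genes, given as descriptions across genes of the same libraries. Genes without introns had a median of -1.53 in females and -0.43 in males, and genes with at least 50 kb of intron 1.88 and 2.39. Among partners, 17 rose and 6 fell in female nuclei, led by the long scaffold genes Magi1 (5.40), Magi2 (4.64) and Magi3 (3.87), with Ybx3 (-2.16), Crb3 (-2.07) and Esam (-1.27) lowest. In males 13 rose and 3 fell, Magi1 by 4.59 and Crb3, Ybx3 and Lsr by -1.34, -1.12 and -0.52. Mpdz and Jam2 were called higher with 0 UMIs in cells. The study kept only genes detected in at least 10 cells of a sample, so such a 0 gives no bound on the fold. Of the other claudins, 4 of 5 fell in females, Cldn6 (-3.34), Cldnd1 (-2.52) and Cldn14 (-2.39) most. In males Cldnd1 and Cldn12 fell, and Cldn18 was called higher, also with 0 UMIs in cells.

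**Figure D5:**
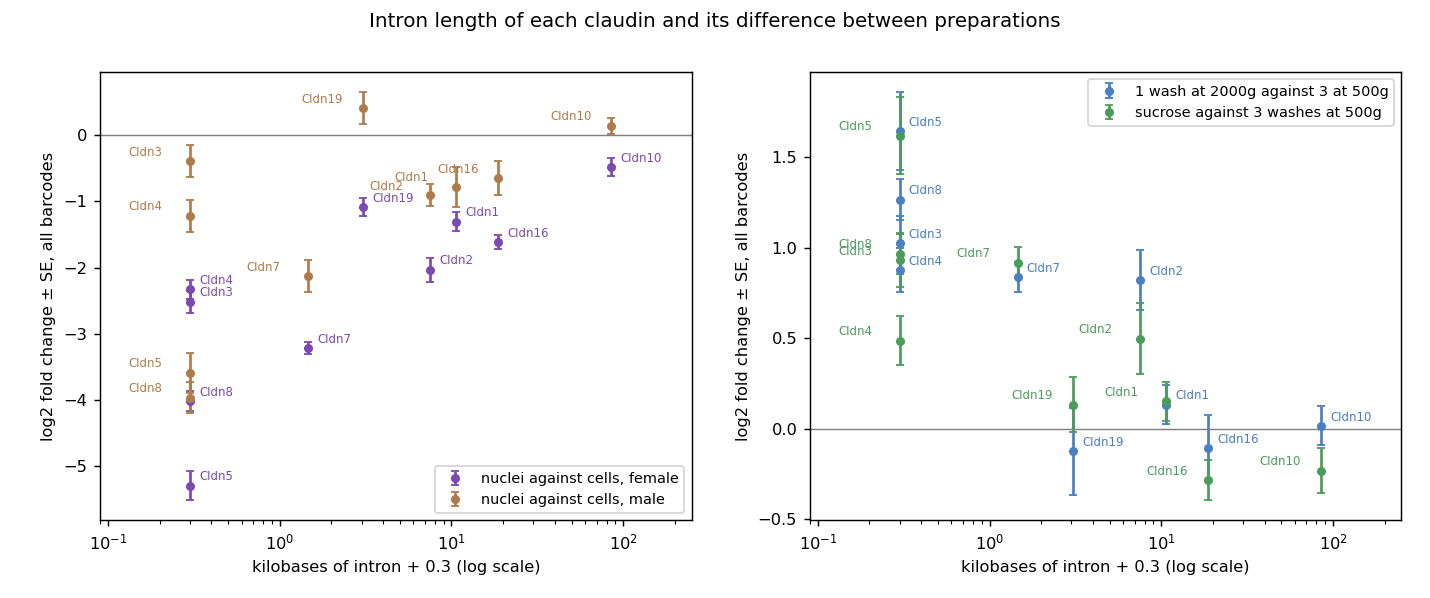
Log2 fold change ± SE over all barcodes of each claudin against kilobases of intron + 0.3 (log axis), for nuclei against cells in females and males (left) and for nuclei washed once at 2000g or passed through sucrose against 3 washes at 500g in females (right). Cldn5, without introns, lay at -5.29 for female nuclei against cells and Cldn10, with the longest introns, at -0.49.

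The 3 nuclei protocols were also compared with each other. Against 3 washes at 500g, 36 of 54 pairs were higher and 0 lower after 1 wash at 2000g, where 15.9% of all gene-class pairs were called, 10.6% higher and 5.26% lower. With sucrose 29 of 50 were higher and 1 lower, where 23.5% were called, 12.8% higher and 10.7% lower. Both comparisons share the 3x500g libraries. In endothelium, which should lack the tubular claudins, Cldn10 rose from 43.3 ± 7.43 CPM to 78.7 ± 12.1 CPM after 1 wash and 72.4 ± 6.86 CPM with sucrose, Cldn7 rose in both (1.01 and 1.17) and Cldn2 after 1 wash (1.30), while Cldn10 in macrophages did not pass (0.17 and 0.29). The part of free RNA in the other classes was not tested. Cldn5 in podocytes had 109, 184 and 93.4 CPM after 3 washes, 370, 513 and 439 CPM after 1 wash (log2 1.84, 8.31% of genes called) and 454, 377 and 346 CPM with sucrose (1.78, 6.35% called). Cldn10 in the loop had 695, 678 and 740 CPM after 1 wash (1.13, 26.9% called) and 593, 563 and 537.5 CPM with sucrose (0.81, 39.2% called), against 310.3 to 338 CPM, without overlap. Cldn16 at 0.20 and -0.04 and Cldn19 at 0.05 and 0.34 in the loop did not pass in either. Whether the makeup of the loop class had a part in the Cldn10 values was not tested. Over all barcodes, with 34.9% and 45.3% of genes called, Cldn5, Cldn8, Cldn3, Cldn7 and Cldn4 passed in both, at 1.64 to 0.84 and 1.62 to 0.49, Cldn2 after 1 wash only (0.82, against 0.50 with sucrose, adjusted p = 0.0716), and Cldn1, Cldn10, Cldn16 and Cldn19 in neither. Here rho with intron length was -0.832 in both comparisons for the members and -0.33 for all genes.

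Cryopreserved cells were compared with fresh ones to see what storage keeps. Class shares moved with storage. The proximal tubule made up 47.6% of fresh and 0.317% of cryopreserved barcodes in cold C57BL/6J, and 42.7% and 5.29% in Balb/c, and the part of this in the sums was not tested. These shares are of all barcodes, unnamed clusters included. The paper, with its own annotation, reports higher proximal tubule shares among the fresh cells of both strains. Over all barcodes 4 of 9 members tested were called in cold C57BL/6J, 2 higher and 2 lower, 9 of 10 in warm C57BL/6J, 6 higher and 3 lower, and 8 of 10 in Balb/c, 5 higher and 3 lower. Cldn10 fell by 4.74 and Cldn2 by 4.59 on the log2 scale in cold C57BL/6J (50.7% of genes called), and Cldn10 by 2.30 and Cldn2 by 2.17 in Balb/c (58.0% called). In warm C57BL/6J (59.8% of genes called) Cldn10 fell by 2.21, and Cldn2 and Cldn1 had 0 UMIs after storage. The study kept only genes detected in at least 10 cells of a sample. A 0 can thus mean removal by that filter, and no bound on the fold is given. Cldn1 in Balb/c is counted as lower, at -0.38, but its mean was 15.3 CPM after storage and 14.9 CPM fresh, with overlap, so its direction depends on the scaling between libraries, and it was not called with DESeq2 (adjusted p = 0.124). The members that rose were Cldn3 and Cldn5 in all 3 comparisons, Cldn3 by 1.20, 2.45 and 0.94 and Cldn5 by 1.00, 2.33 and 1.13, Cldn4, Cldn7 and Cldn8 in warm C57BL/6J (3.25, 2.09 and 1.17) and Balb/c (0.74, 0.62 and 0.41), and Cldn19 in warm C57BL/6J (0.68). The calls of Cldn3 in cold C57BL/6J, of Cldn19, and of Cldn1 and Cldn8 in Balb/c were lost without single libraries. Cldn2 in cold C57BL/6J was not called with DESeq2 (adjusted p = 0.0929). Endothelium went from 6.68% to 25.4% of barcodes in cold C57BL/6J.

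Within classes fewer pairs were called, 1 of 18 in cold C57BL/6J, 4 of 18 in warm C57BL/6J and 6 of 34 in Balb/c, against 3.89%, 7.08% and 4.65% of all gene-class pairs. The count of 1 in cold C57BL/6J was 2 to 3 when any 1 library was left out, 2 with DESeq2, at the other resolution and without doublets, and 4 without a filter on low counts. Cldn10 in the loop was lower after storage in Balb/c, with 1517, 1220 and 1396 CPM against 2054, 1797 and 2039 (log2 -0.61, 3.84% of genes called), and in warm C57BL/6J, with 624, 838 and 902 CPM against 2133, 1386 and 1591 (-0.97, 8.8% called). Whether the makeup of the loop class had a part in these values was not tested. Cldn5 in podocytes of Balb/c was higher, at 1736, 1672 and 2196 CPM against 1357, 1157 and 1145 (0.60, 1.03% called). Cldn5 in cold C57BL/6J endothelium rose by 1.11 (6.54% called), and the part of the makeup of that class in the value was not tested. The other calls were Cldn4 in collecting duct (0.68, 8.19% called) and intercalated cells (2.00, 10.0% called) and Cldn7 in intercalated cells (1.07) of warm C57BL/6J, and in Balb/c Cldn10 in proximal tubule (-0.86, 11.8% called) and collecting duct (-3.11, 2.58% called), Cldn8 in connecting tubule (-0.93, 4.28% called) and Cldn2 in thin limb (-1.78, 4.35% called). With fresh and cryopreserved female cells pooled and thinned to 1000 UMIs, 2.22% of collecting duct cells and 2.67% of macrophages had a Cldn10 UMI. The part of free RNA in the collecting duct value was not tested. Several of these calls rested on single libraries. That of Cldn10 in the Balb/c loop was lost without cryopreserved replicate 2 or fresh replicate 1 or 3 (adjusted p 0.0796 to 0.0901), and that of Cldn5 in Balb/c podocytes without any of 5 of the 6 libraries, with DESeq2 (adjusted p = 0.0564), at the other resolution and without doublets. Those of Cldn4 in the collecting duct and Cldn7 in intercalated cells of warm C57BL/6J and of Cldn2 in the Balb/c thin limb were also lost without single libraries. In the collecting duct of C57BL/6J cells a cluster of 607 led by Gdf15 and Elf3 came to 51.4% from warm cryopreserved replicate 1, so stored and fresh cells of that class lay partly in different clusters, and the part of this in the Cldn4 call was not tested.

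Methanol fixation of cold suspensions changed 14 of 31 pairs, 8 higher and 6 lower, where 20.6% of all gene-class pairs were called, 9.7% higher and 10.9% lower. Cldn10 was higher in 7 classes, from 0.46 in the proximal tubule (22.8% called) and 0.62 in the loop (23.2% called) to 2.19 in podocytes. Macrophages had 121 ± 4.66 CPM of Cldn10 fixed and 44.4 ± 6.17 CPM fresh (log2 1.26, 28.8% called), so the gene rose also in a class that should lack it, and the part of free RNA in the other classes was not tested. The other higher call was Cldn8 in the proximal tubule (1.58), which did not pass without methanol replicate 2 or 3 or fresh replicate 1 or 3. The part of free RNA in this call was not tested either. Cldn5 in podocytes fell by 0.90, from 1975, 1546 and 1389 CPM to 1059, 1137 and 616 CPM (20.5% called). Cldn8 fell in connecting tubule (-0.83, 13.5% called), distal convoluted tubule (-1.14, 24.4% called), intercalated cells (13.9% called) and loop (-0.89), and Cldn7 fell by 0.75 in the collecting duct (15.4% called). In warm suspensions 2 of 19 pairs passed, against 10.5% of all pairs, Cldn8 in the distal convoluted tubule (-1.24, 12.7% called) and Cldn5 in endothelium (-2.16, 10.3% called), the latter on 16 UMIs in 1 of 3 fixed libraries. The study kept only genes detected in at least 10 cells of a sample. A 0 in a fixed library can thus mean removal by that filter, and no loss of Cldn5 is read from its value. With DESeq2 neither of these pairs passed in warm and 5 pairs passed in cold suspensions, and in the cold ones the calls of Cldn10 in loop and proximal tubule were lost without fresh replicate 2 or 3 or methanol replicate 2, among others.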

How the data were processed

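Cell suspensions, nuclei and bulk RNA of mouse kidney were measured in 54 libraries. The deposited 10x counts are UMI counts per gene made by the authors with Cell Ranger 2.1.1 on mm10, from exons in cells and from introns and exons in nuclei, filtered by the authors. The deposited bulk counts are read counts per gene, made by the authors with STAR 2.6.1a on GRCm38 and featureCounts after duplicates were marked. Groups came from the sample labels. The study describes triplicates from separate mice, and p-values measure the spread between these libraries only. Depth is given by library ranges, each ± in the text is an SD over libraries, and each SE belongs to an edgeR fit.

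From these counts, barcodes were clustered (leidenalg 0.10.2) without claudins, doublets were marked by simulated doublets, and clusters were named from fixed markers, with the limits of naming set after clusters had been seen. UMIs were summed per library and class (at least 10 barcodes) and tested with edgeR 4.0.16 (quasi-likelihood, TMM, filterByExpr, Benjamini-Hochberg over all genes, called at 0.05). The script was tested on simulated data. DESeq2 1.42.0, other scaling, filters, resolution, doublet removal and leaving out each library were alternatives. Members and lists were chosen with earlier results of these data known. All members are named. Of other claudins and partners, up to 3 called genes per direction are named in bulk and nuclei comparisons, and 3 most alike genes per member, 1 of which is not reported here. Interaction tests were added after seeing the data.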

Additional observations from a re-analysis of the deposited data

Results flagged for a closer look

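The difference between nuclei and cells was itself compared between females and males in an interaction test with edgeR, added after seeing the data, and 26 of 56 member tests passed. Each value is the female minus the male log2 fold change in a joint fit with its own scaling and filter. It is therefore not the difference of the separate fold changes given above. All that passed were negative, and they include pairs without a male test of their own, named below. For some the male value was no fall, since Cldn10 in connecting tubule and intercalated cells was higher in male nuclei (1.45 and 1.72) as was Cldn3 in the proximal tubule (3.84, on 1 UMI in cells), and Cldn5 in male podocytes did not pass (-0.21). The part of free RNA in those Cldn10 values was not tested. The median of all genes over all barcodes, fitted separately, was 0.10 in females and 0.84 in males, so the value of Cldn10 over all barcodes was close to the difference of those medians. Sex, age, chemistry and depth cannot be told apart in it. Over all barcodes, where 54.6% of genes passed, the values were -0.74 for Cldn10, -1.08 for Cldn16, -1.60 for Cldn19, -1.24 for Cldn2, -2.24 for Cldn3, -1.22 for Cldn4, -1.82 for Cldn5 and -1.20 for Cldn7.

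In the ascending loop, where 13.9% of genes passed, they were -1.05 for Cldn10 and -1.13 for Cldn19. Podocytes had -1.88 for Cldn5 (5.57% passed). The median of all genes there, fitted separately, was -0.36 in females and -1.50 in males, so the value depends on the scaling. Endothelium had -3.45 for Cldn5 (7.41% passed), but the male endothelium, with 45 UMIs of Cldn5 in cells and 31 in nuclei, did not pass the filter on low counts alone, so the gene entered through the female libraries and nothing is read from the value. Cldn10 and Cldn3 in the collecting duct and Cldn3 in intercalated cells had no male test of their own either, and Cldn2 in the connecting tubule none in either sex, so nothing is read from their values. The proximal tubule had -0.89 for Cldn2 and -3.44 for Cldn3 (47.3% passed), the latter also resting on that 1 UMI. The collecting duct had -2.97 for Cldn10, -2.75 for Cldn3 and -2.04 for Cldn4 (10.9% passed), and the distal convoluted tubule -1.92 for Cldn7 (11.2% passed). In the connecting tubule (22.8% passed) Cldn10 had -2.93, Cldn2 -2.94, Cldn4 -1.78, Cldn7 -2.86 and Cldn8 -1.43. In intercalated cells (28.1% passed) Cldn10 had -2.34, Cldn3 -2.09 and Cldn7 -1.86.

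Cryopreservation was compared between warm and cold C57BL/6J suspensions in the same way, and 4 of 34 member tests passed, where 6.32% of genes passed over all barcodes. The warm minus cold differences over all barcodes were 2.51 for Cldn10, 1.31 for Cldn5, 1.50 for Cldn8 and 7.56 for Cldn16. The last rests on a group with 0 counts and depends on the prior count, so it is no bound. Cldn16 also had no test of its own over all barcodes in cold suspensions, so nothing is read from its value or its call. For methanol fixation, warm against cold, 0 of 36 member tests passed with edgeR, and 4 had an unadjusted p under 0.05. The share of all genes is not given beside these counts, so nothing about the members is read from them. Cold Balb/c and cold C57BL/6J cryopreservation, which differ in strain, sex, age, storage time, chemistry and centrifugation speed, were compared likewise, and 3 of 37 member tests passed. The Balb/c minus C57BL/6J differences were 2.44 for Cldn10 and 2.44 for Cldn2 over all barcodes (19.9% of genes passed) and -1.16 for Cldn5 in endothelium (0.993% passed).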

How the results depend on the processing

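No paired analysis was possible because replicate numbers were given in accession order and the labels pair no samples. The study describes stored samples as aliquots of suspensions, but which libraries share one is not in the labels, so they were treated as independent. The highest class of each member was the same under another resolution and without doublets in all 50 combinations of gene and group. Of single-gene fits, 975 of 1045 kept direction and call under the alternatives that keep all libraries and 69 lost the call, 41 of these with DESeq2. Leaving out a library kept 1058 of 1276. The 1 reversal was Cldn10 in female endothelium, 0.14 when nuclei of all 3 protocols were used (adjusted p = 0.666). Calls per comparison, leaving out each library in turn, were 3 to 6 for bulk warm against cold (3 without warm replicate 2 or 3 or cold replicate 1 or 2), 1 to 5 for bulk intact against cold (5 without intact replicate 3, 2 without cold replicate 2 or 3), 18 to 27 and 33 to 39 for male and female nuclei against cells, 2 to 4 for fresh warm against cold (4 without warm replicate 1), 2 to 3, 2 to 4 and 4 to 9 for cryopreservation in cold C57BL/6J, warm C57BL/6J and Balb/c, 7 to 14 and 0 to 3 for methanol in cold and warm (7 without cold methanol replicate 3, 8 without cold fresh replicate 2, 9 without cold methanol replicate 2, 0 and 1 without warm methanol replicates 1 and 3), 25 to 32 for 1 wash at 2000g and 21 to 28 for sucrose. The exact test gave 2 calls for bulk intact against cold. Without a filter there were 6 calls for fresh warm against cold, and 4, 10 and 11 for the 3 cryopreservation comparisons. For cold C57BL/6J cryopreservation DESeq2, the other resolution and doublet removal gave 2. DESeq2 gave 5 and 0 calls for methanol in cold and warm. The causes were not tested. DESeq2 scaling shifted the median of all genes by 0.34 in male nuclei against cells over all barcodes. The values of paired detection changed with thinning, and at 2000 UMIs the male libraries also dropped out. Cldn10 with Cldn16 was -1.33 at 500 UMIs, -1.50 at 2000 UMIs and -1.10 without doublets, with -0.97 to -0.69 leaving out a library. Cldn16 with Cldn19 was 0.78 (adjusted p = 0.105, exact permutation) at 500, 0.35 at 2000 and 0.68 (adjusted p = 0.0491, exact permutation) without doublets, with 0.90 to 1.21. Cldn10 with Cldn19 was -0.17 at 500, -0.20 at 2000 (adjusted p = 0.0273, exact permutation) and -0.091 without doublets, with 0.12 to 0.41. Low UMI counts limit Cldn1 and Cldn3 in most classes.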
